A study of Mus musculus with 14 samples.

Results

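Transcripts of 10 genes that respond to endoplasmic reticulum (ER) stress or to amino acid shortage were followed in developing male and female mouse liver: Atf4, Ddit3, Atf3, Trib3, Chac1, Asns, Xbp1, Herpud1, Creld2 and Sdf2l1. They were chosen with earlier results of these data known, and their probes were found by gene symbol, through the RefSeq accession that the array gives. They had 11 probes, of the 26055 probes that could be named in this way for 19751 genes. Liver RNA of CD-1 mice, with no treatment or engineered allele named in the labels, came from 6 groups: males and females aged 3 wk (M3 and F3), 4 wk (M4 and F4) and 8 wk (M8 and F8). Each group had 2 pools of RNA, of 5 mice each at 3 wk and of 6 mice each at 4 and 8 wk. The spread between individual mice was thus not measured. Pups had been bought with foster dams and livers were frozen at once, and the hour of killing was not given in the sources used here. Pools were compared on 14 whole-genome Agilent arrays in 7 comparisons, with 2 arrays each, made from separate pools with the dyes exchanged. They are the 3 comparisons of the sexes at one age (M3/F3, M4/F4 and M8/F8) and, within each sex, 8 wk against 3 wk and against 4 wk (M8/M3 and M8/M4 for males, F8/F3 and F8/F4 for females). Every value below is a log2 ratio of signals on one array, male over female or 8 wk over the younger age, unless it is called a level. P-values, SEs and intervals of the main fit rest on the spread between the 2 arrays of each comparison. A dye term, fitted for each gene, is taken out of that spread. Because dyes and pools changed together, the dye term can take up part of the difference between pools. The spread between pools may thus be larger than the SEs and p-values allow for.

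Cells meet misfolded protein in the ER, or a shortage of amino acids, with overlapping programs. Kinases such as PERK, at the ER membrane, and GCN2, which senses uncharged transfer RNA, phosphorylate the initiation factor eIF2. This slows most translation but favors that of the transcription factor ATF4, which induces genes such as Ddit3, Atf3, Trib3, Chac1 and Asns. A separate arm works through the ER sensors IRE1, which splices the mRNA of Xbp1, and ATF6, and induces chaperones and proteins that remove misfolded clients from the ER. Hepatocytes secrete most of the proteins of plasma and carry an extensive ER. Arrays of this kind measure mRNA and not the splicing of Xbp1 or the translation of Atf4.

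The promoters of the 10 genes are shown as background for the groups that follow, because the factors of these programs bind known short elements. In the RefSeq promoter table (build GRCm38.p6), which held all 10 genes, the 250 bases before each start site were searched on both strands. The letters searched were those of the ER stress response element (CCAAT and CCACG with 9 bases between them), its second form (ATTGG and CCACG with 1 base between them), the unfolded protein response element (TGACGTGG) and the composite element of ATF4 and C/EBP factors (TGATGNAA). Among one window for each of 27025 symbols, these were found in 0.122%, 0.0333%, 0.503% and 3.53%. Of the 10 genes, 5 held at least 1 of them. The composite element was in 4 (Asns, Chac1, Atf3 and Herpud1), the ER stress response element in 1 (Creld2) and its second form in 1 (Herpud1). The other 5 windows held none of these letters. Asns, Chac1, Herpud1 and Creld2 are printed because they stand for each element found and because their mRNAs behaved differently with age. Capitals mark the matches, which are descriptions of the letters and not evidence of binding, and each sequence runs toward the gene's start site. The capitals in Chac1 and Creld2, and the first run of capitals in Herpud1, are matches on the opposite strand and so read as the reverse complement of the letters given. The windows were chr6:7693210-7693459 on the minus strand for Asns, chr2:119350992-119351241 on the plus strand for Chac1, chr8:94386179-94386428 on the plus strand for Herpud1 and chr15:88819396-88819645 on the plus strand for Creld2.
Asns: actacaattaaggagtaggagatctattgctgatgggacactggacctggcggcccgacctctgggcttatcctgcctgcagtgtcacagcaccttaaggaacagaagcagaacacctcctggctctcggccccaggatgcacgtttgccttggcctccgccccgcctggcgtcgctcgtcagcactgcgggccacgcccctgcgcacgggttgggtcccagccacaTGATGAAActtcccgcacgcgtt
Chac1: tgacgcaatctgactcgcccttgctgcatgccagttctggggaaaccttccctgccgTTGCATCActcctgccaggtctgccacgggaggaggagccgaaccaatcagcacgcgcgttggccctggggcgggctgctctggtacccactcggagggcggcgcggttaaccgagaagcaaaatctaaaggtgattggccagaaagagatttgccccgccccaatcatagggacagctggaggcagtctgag
Herpud1: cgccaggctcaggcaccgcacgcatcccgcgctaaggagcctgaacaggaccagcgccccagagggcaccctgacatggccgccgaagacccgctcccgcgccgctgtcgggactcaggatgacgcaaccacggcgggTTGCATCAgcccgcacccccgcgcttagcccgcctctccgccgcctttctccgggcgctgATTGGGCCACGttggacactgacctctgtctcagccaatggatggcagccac
Creld2: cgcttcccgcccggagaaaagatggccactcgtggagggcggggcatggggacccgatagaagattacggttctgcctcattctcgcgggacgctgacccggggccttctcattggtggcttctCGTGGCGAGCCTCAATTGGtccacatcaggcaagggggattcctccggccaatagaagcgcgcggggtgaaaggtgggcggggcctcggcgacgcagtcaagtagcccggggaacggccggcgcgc

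The arrays held 43020 spots for 39429 probes, and 55.2% to 77.2% of the spots were well above background in a channel. No spot was saturated. Xist was at -6.67 to -5.10 and Ddx3y at 5.80 to 7.24 in the sex comparisons, as the labelled dyes require. All 10 genes were well above local background in all 28 channels of the 14 arrays. A gene was called in a comparison at an adjusted p below 0.05 in limma (Benjamini-Hochberg over all probes and comparisons) with a ratio above 1.5 or below 0.667. By this rule 7 of the 10 genes were called in at least 1 comparison, as were 23.1% of the 15306 genes tested. Since the 10 genes were chosen with earlier results known, such counts are descriptions and not a test against these shares. Atf4, Xbp1 and Herpud1 were called in none. In M8/M3, 7 of the 10 were called (2 up and 5 down), beside 17.8% of all genes tested (7.81% up and 10% down). In F8/F3, 5 were called (2 up and 3 down), beside 11.7% (5.08% up and 6.64% down). In M8/M4, 4 were called (1 up and 3 down), beside 10.8% (4.43% up and 6.37% down), and in F8/F4, 4 were called (1 up and 3 down), beside 6% (2.28% up and 3.72% down). The sex comparisons had fewer calls. In M8/F8, 1 gene was called up, beside 6.4% of all genes in either direction and 2.66% up. In M4/F4, 1 gene was called up, beside 1.58% in either direction and 0.612% up. In M3/F3, limma called 0 of the 10 beside 0.517% of all genes, with 1 gene (Asns) at an unadjusted p below 0.05, and error-weighted averaging of the deposited ratios called 1 gene (Trib3). The median of the 10 log2 ratios lay between -0.39 and -0.14 in the age comparisons, while the median of all genes tested lay between 0.01 and 0.02. The 10 genes did not move as a block, as the plot of the ratios on each array shows.

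**Figure D1:**
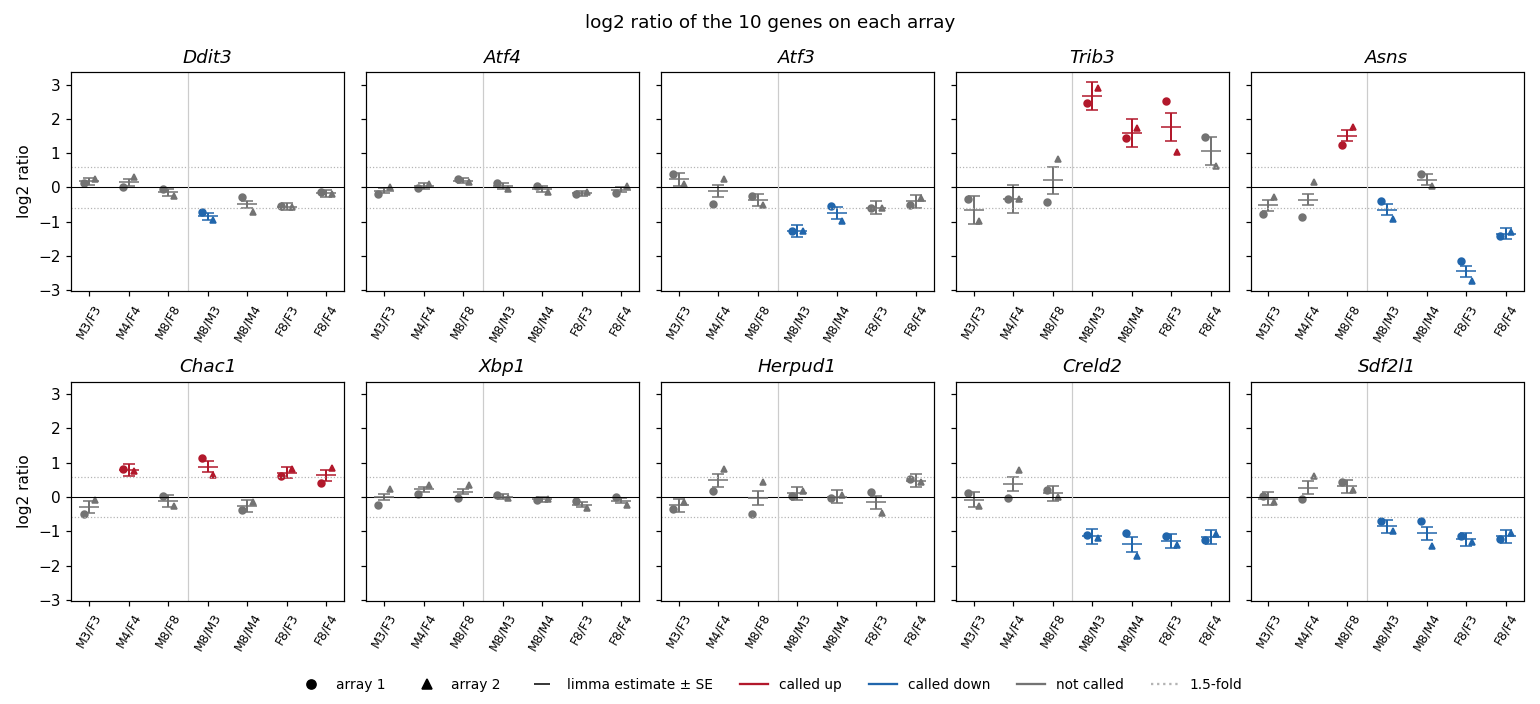
log2 ratio (vertical axis) of each of the 10 genes in the 7 comparisons, with a circle for the first array, a triangle for the second, and a bar for the limma estimate ± SE. Red and blue mark called increases and decreases and dotted lines mark 1.5-fold. Trib3 and Chac1 lay above 0 in the comparisons in which they were called, Creld2 and Sdf2l1 lay between -0.69 and -1.72 on every array of the 4 age comparisons, and Atf4 and Xbp1 stayed within 0.36 of 0.

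Atf4 encodes the factor at the head of the amino acid and eIF2 branch. Its ratios were small: on the brighter of its 2 probes the 14 array values ran from -0.20 to 0.24. No comparison was called, and the estimate with the largest size was 0.19 in M8/F8 (SE 0.08, adjusted p = 0.165). The 95% interval of the 3 to 8 wk change was -0.14 to 0.23 in males and -0.35 to 0.01 in females. The second probe gave estimates from -0.07 to 0.18, and its sign differed from the first in M3/F3, M8/M3, M8/M4 and F8/F4, where both probes lay within 0.10 of 0.

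Ddit3 encodes CHOP, a factor induced by prolonged ER stress, and Atf3 encodes a stress-inducible factor of the same leucine zipper family. Both fell with age, with the larger estimates in males. On the M8/M3 arrays Ddit3 was at -0.72 and -0.95, and it fell by 0.84 (SE 0.10, adjusted p = 0.00283). On the F8/F3 arrays it was at -0.55 and -0.56, and the estimate of -0.56 (SE 0.10, adjusted p = 0.0136) passed the test of the p-value but lay just inside the 1.5-fold limit. On the M8/M4 arrays it was at -0.26 and -0.72, and the estimate of -0.49 (adjusted p = 0.0216) likewise passed the p-value and not the fold limit, although it was called without the first array (-0.68). On the F8/F4 arrays it was at -0.14 and -0.19 and was not called (adjusted p = 0.394). Every array of the 4 age comparisons had less Ddit3 signal at 8 wk. With either array left out, the M8/M3 estimate was -0.90 or -0.78 and remained called.

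Atf3 was at -1.27 on both M8/M3 arrays, which gave a 2.41-fold decrease (log2 estimate -1.27, SE 0.18, adjusted p = 0.0052). It was at -0.53 and -0.97 in M8/M4 (estimate -0.75, SE 0.18, adjusted p = 0.0375). Female values were smaller in size, at -0.59 on both F8/F3 arrays (adjusted p = 0.083) and at -0.51 and -0.29 in F8/F4 (adjusted p = 0.22), and neither was called. The test of the difference between the sexes in the 3 to 8 wk change did not pass for Atf3 (difference -0.68, 95% interval -1.29 to -0.06, adjusted p = 0.227) or for Ddit3 (difference -0.28, 95% interval -0.63 to 0.06, adjusted p = 0.376). The call of Atf3 in M8/M3 was lost without the first array (estimate -1.23). That in M8/M4 was lost without either array (-0.97 and -0.53), with a replicate block and with the slide as a block.

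Trib3 encodes a pseudokinase that is induced by ATF4 and CHOP and restrains their activity. It had the largest increase of the 10 genes. On the M8/M3 arrays it was at 2.46 and 2.89, a 6.38-fold increase (estimate 2.67, SE 0.41, adjusted p = 0.00639). On the M8/M4 arrays it was at 1.45 and 1.74 (estimate 1.59, SE 0.41, adjusted p = 0.0443). All 4 male arrays had more Trib3 signal at 8 wk, the opposite direction to Ddit3 and Atf3. The M8/M3 call was lost without the second array (estimate 2.24) and the M8/M4 call without either (1.95 and 1.24). The M8/M4 call was also lost with a replicate block, with the slide as a block and with median-centred background-subtracted signals.

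In female liver the arrays of Trib3 were further apart. F8/F3 was at 2.51 and 1.03, with an estimate of 1.77 (SE 0.41, adjusted p = 0.0303), and the estimate was 1.09 and not called when the first array was left out. That call was also lost with the slide as a block. F8/F4 was at 1.48 and 0.63 and was not called (estimate 1.05, adjusted p = 0.152). The larger value came from the first pair of pools in both. The gap of 1.48 between the 2 arrays of F8/F3 was the widest of any of the 10 genes in any comparison, and M8/F8 stood at -0.43 and 0.84, with a gap of 1.27. The change from 3 to 8 wk did not differ detectably between the sexes (difference 0.90, SE 0.57, 95% interval -0.46 to 2.27, adjusted p = 0.483).

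Chac1 encodes an enzyme that breaks down glutathione. It rose from 3 to 8 wk in both sexes, with 1.13 and 0.65 on the M8/M3 arrays (estimate 0.89, SE 0.17, adjusted p = 0.0141) and 0.61 and 0.82 on the F8/F3 arrays (estimate 0.71, SE 0.17, adjusted p = 0.0321). The M8/M3 estimate was 0.58 and not called without the first array, and the F8/F3 call was lost without either (0.81 and 0.62) and with median-centred background-subtracted signals. From 4 to 8 wk M8/M4 was at -0.39 and -0.13 and was not called, while F8/F4 was at 0.42 and 0.85 and was called (estimate 0.64, SE 0.17, adjusted p = 0.048). At 4 wk the level was higher in male liver, with 0.82 and 0.76 on the M4/F4 arrays, a 1.73-fold difference (SE 0.17 on the log2 scale, adjusted p = 0.0222). The M4/F4 call was lost when p-values were adjusted within the comparison, and that in F8/F4 under 5 of 14 alternatives. Both were lost without either array (0.79 and 0.79 in M4/F4, 0.86 and 0.42 in F8/F4). The direct test of M8/M4 against F8/F4 was not passed (difference -0.89, 95% interval -1.45 to -0.34, adjusted p = 0.156), nor was that of the indirect 3 to 4 wk change in males through the shared M8 pools (1.15, 95% interval 0.59 to 1.71, adjusted p = 0.106).

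Asns encodes asparagine synthetase, which makes asparagine from aspartate and glutamine, and is a standard marker of ATF4 activity. It fell with age most in female liver. On the F8/F3 arrays it was at -2.16 and -2.73, a 5.44-fold decrease (estimate -2.44, SE 0.16, adjusted p = 0.000311). On the F8/F4 arrays it was at -1.42 and -1.29 (estimate -1.35, SE 0.16, adjusted p = 0.00244). In male liver the decrease from 3 wk was smaller, with -0.38 and -0.92 on the M8/M3 arrays (estimate -0.65, SE 0.16, adjusted p = 0.0387), and its call was lost under 5 of 14 alternatives and without either array (-0.69 and -0.62). M8/M4 stood at 0.40 and 0.05 and was not called.

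Asns was higher in males than in females at 8 wk, with 1.24 and 1.77 on the M8/F8 arrays, a 2.84-fold difference (estimate 1.51, SE 0.16, adjusted p = 0.00164). It was the one gene of the 10 called in M8/F8. At the younger ages the estimates had the opposite sign and were not called. They were -0.77 and -0.28 on the M3/F3 arrays (adjusted p = 0.0819) and -0.86 and 0.15 on the M4/F4 arrays (adjusted p = 0.219). The interaction was tested directly. The 3 to 8 wk change differed between the sexes by 1.79 (SE 0.23, adjusted p = 0.0105, 1 of the 10 genes called up beside 3.36% of all genes called and 1.61% called up), and the 4 to 8 wk change by 1.58 (SE 0.23, adjusted p = 0.0285, 1 of the 10 called up beside 1.31% called and 0.725% called up). Asns was the gene called in each. The arrays of the male and female comparisons with 3 wk were scanned on different days, so that scan day and sex cannot be told apart in the first difference. With the slide as a block, which cannot separate them either, the first call was kept and the second lost. Both calls were lost without a dye term. The first was lost when any 1 of its 4 arrays was left out (1.74 to 1.84), and the second for 3 of its 4 arrays (1.23 to 1.94 over all 4). The calls of Asns in M8/F8, F8/F3 and F8/F4 were kept under all 14 alternatives and whichever array was left out.

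**Figure D2:**
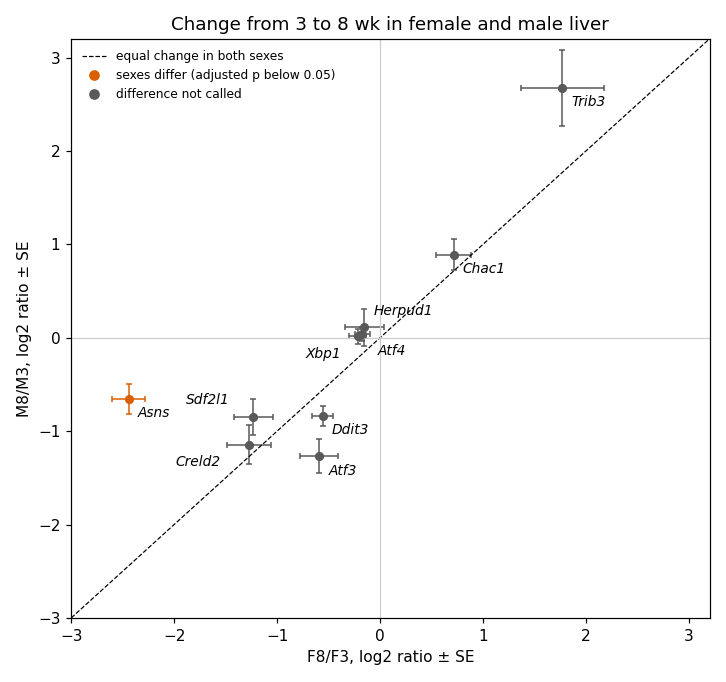
Change between 3 and 8 wk in females (horizontal axis, log2 ratio F8/F3) and males (vertical axis, log2 ratio M8/M3) of the 10 genes, with bars of ± 1 SE and a dashed line of equal change. Asns, at -2.44 and -0.65, is the one gene for which the difference between the sexes was called, and Trib3, at 1.77 and 2.67, has the widest bars.

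Of the 4 genes of the ER branch, Creld2 and Sdf2l1 were called down with age, and Xbp1 and Herpud1 were called in no comparison. Xbp1 encodes the factor produced after IRE1 splices its mRNA. Total Xbp1 mRNA ran from -0.33 to 0.36 over the 14 arrays and was called in no comparison. The 95% interval of its 3 to 8 wk change was -0.17 to 0.20 in males and -0.41 to -0.03 in females (adjusted p = 0.127).

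Herpud1 encodes an ER membrane protein of the complex that degrades misfolded proteins. It ran from -0.48 to 0.82, and no comparison was called. Its arrays disagreed in sign in M8/F8, at -0.48 and 0.43, and in F8/F3, at 0.15 and -0.45. It was at 0.16 and 0.82 in M4/F4 (estimate 0.49, 95% interval 0.03 to 0.95, adjusted p = 0.159). Both F8/F4 arrays lay above 0, at 0.52 and 0.44 (estimate 0.48, 95% interval 0.02 to 0.94, adjusted p = 0.173).

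Creld2 and Sdf2l1 encode ER-resident proteins that are induced with the chaperone BiP, and SDF2L1 works as a partner of BiP and its cofactor DNAJB11. Both fell in all 4 age comparisons. Creld2 was at -1.09 and -1.20 in M8/M3, at -1.05 and -1.72 in M8/M4, at -1.15 and -1.40 in F8/F3 and at -1.26 and -1.08 in F8/F4. This corresponded to decreases of 2.21-fold to 2.61-fold (SE 0.21 on the log2 scale, adjusted p from 0.00664 to 0.0137). Its probe was printed in 10 spots on each array, and the SD among spots of one array was 0.01 to 0.03, below the differences between arrays of one comparison. The M8/M3 and F8/F3 calls were lost without either array, with estimates from -1.33 to -1.12, and the F8/F4 call without the first array (-0.97).

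Sdf2l1 was at -0.70 and -0.99 in M8/M3, at -0.69 and -1.41 in M8/M4, at -1.14 and -1.32 in F8/F3 and at -1.22 and -1.06 in F8/F4. The decreases were 1.80-fold to 2.35-fold (SE 0.19 on the log2 scale, adjusted p from 0.00701 to 0.029). All 8 arrays lay below 0. The M8/M3 and F8/F3 calls were lost without either array, with estimates from -1.23 to -0.78, and the F8/F4 call without the first (-0.94). The M8/M3 call was also lost with the slide as a block. The differences between the sexes in the 3 to 8 wk change were 0.13 for Creld2 (95% interval -0.58 to 0.84) and 0.38 for Sdf2l1 (95% interval -0.26 to 1.03), neither of them called.

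Sex ratios of Creld2 and Sdf2l1 were not called at any age, but their second M4/F4 array stood apart. Creld2 was at -0.03 and 0.79 in M4/F4, and Sdf2l1 at -0.06 and 0.61. The second M8/M4 array, which holds the other ratio made with M4 pools of that number, also had the larger size in both genes. In levels, the second M4 pool was the highest of the 12 pools for Creld2 (14.90) and Sdf2l1 (13.24). Without the second M8/M4 array, estimates were -1.08 for Creld2 and -0.73 for Sdf2l1, and neither was called.

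Levels were taken as the log2 of the processed signal of each pool, averaged over the arrays it was hybridized to and scaled across arrays. They can be compared between groups for one gene and not between genes, since probes differ in brightness. In bulk tissue, fewer cells of a type and less RNA per cell cannot be told apart. Trib3 was lowest in M3 (pools at 8.92 and 8.87), followed by F3 (9.22 and 9.86), M4 (10.01 and 9.98), F4 (10.32 and 10.35), F8 (11.75 and 10.97) and M8 (11.40 and 11.78). Pools of neighboring groups in this order did not overlap, except those of F8 and M8. The 3 wk pools were the lowest 4 and the 8 wk pools the highest 4.

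Asns was lowest in F8 (6.83 and 6.74), followed by M4 (7.62 and 8.10), M8 (8.05 and 8.23), F4 (8.34 and 8.05), M3 (8.42 and 9.06) and F3 (9.10 and 9.39). The pools of M4, M8 and F4 overlapped in turn. F8 lay below every other pool and F3 above every other.

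Creld2 was lowest in F8 (12.72 and 12.86) and then M8 (12.98 and 12.99), and the F4, F3, M3 and M4 pools overlapped in turn between 13.91 and 14.90. Sdf2l1 had the same order of lowest groups, F8 (11.45 and 11.47) and M8 (11.94 and 11.77), below the 4 younger groups at 12.59 to 13.24. For both genes the 8 wk pools lay below all younger pools, and the pools of F8 lay below those of M8 although M8/F8 was not called.

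Ddit3 ran from M8 (8.36 and 8.26) through F8 (8.47 and 8.37), F4 (8.50 and 8.58), M4 (8.55 and 8.91) and F3 (9.14 and 8.99) to M3 (9.16 and 9.35). Neighbors were separate except F4 and M4. Atf3 ran from M8 (6.50 and 6.64) and F8 (6.84 and 7.08) through M4 (6.88 and 7.65) and F4 (7.40 and 7.38) to F3 (7.56 and 7.82) and M3 (7.98 and 7.99). The M4 pools overlapped both their neighbors. In both genes the order began with M8 and ended with M3.

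Chac1 ran from M3 (8.12 and 8.30) through F3 (8.64 and 8.55), F4 (8.81 and 8.51), M8 (9.32 and 9.07) and F8 (9.28 and 9.43) to M4 (9.69 and 9.26). F3 overlapped F4, M8 overlapped F8, and F8 overlapped M4. Herpud1 was lowest in F4 (14.01 and 14.02), and the other groups overlapped in turn between 14.19 and 14.89. Atf4 pools overlapped throughout, between 13.99 and 14.36, and Xbp1 pools lay between 15.09 and 15.48. The order of groups changed for Atf4 and Xbp1 when channels were scaled by their 75th percentile, and for the other 8 genes it did not.

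**Figure D3:**
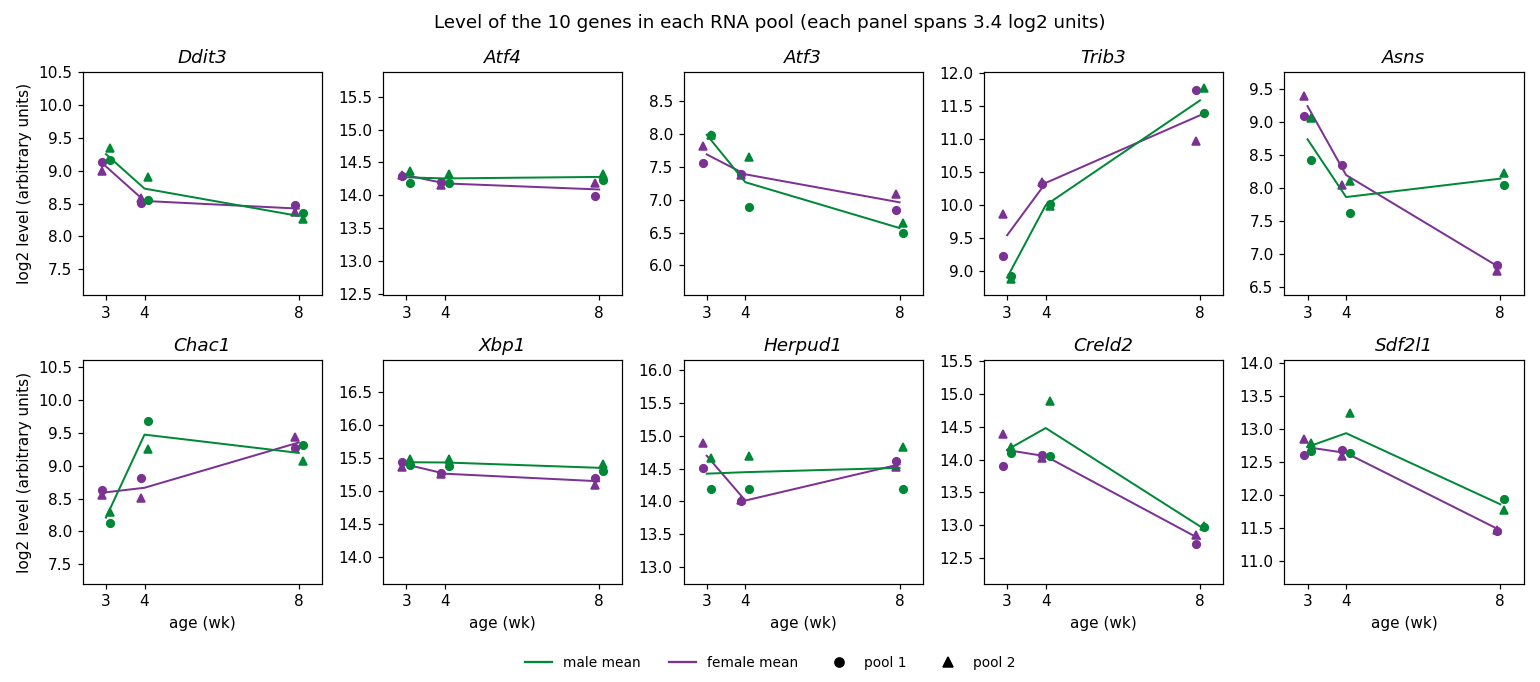
log2 level (vertical axis, arbitrary units) of each gene in the 12 RNA pools against age in wk (horizontal axis), with circles and triangles for the first and second pool of a group and lines through the means of males (green) and females (purple). Every panel spans the same number of log2 units. Trib3 rises, Creld2 and Sdf2l1 drop at 8 wk, and Asns drops at 8 wk in females, to 6.83 and 6.74, while the male pools are at 8.05 and 8.23.

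The indirect change from 3 to 4 wk, read through the 8 wk pools shared by 2 comparisons, was called by limma for 0 of the 10 genes in males (M4/M3, beside 0.292% of all genes) and 0 in females (F4/F3, beside 0.0931%). At an unadjusted p below 0.05 there were 2 genes in males (Asns and Chac1) and 2 in females (Asns and Ddit3), and error-weighted averaging called 2 and 0. The standard errors of these contrasts treat arrays that share the 8 wk pools as independent. With shared pools in the covariance 1 gene was called in M4/M3, and with 6 group means 2 were called in M4/M3 and 1 in F4/F3. The estimates for Asns were -0.88 in males and -1.09 in females (adjusted p = 0.166 in each). Without the first F8/F4 array the female estimate was -1.45 and was called.

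The other genes of the pathway were read from 4 lists, by the same rule and beside the same shares of all genes as above. Of 17 sensors and eIF2 regulators tested, 1 was called up in M8/M3, 1 down in M8/M4 and 2 down in F8/F3. Eif2ak3, which encodes PERK, was at -0.96 and -0.70 in M8/M4 (estimate -0.83, adjusted p = 0.0103) and fell by 0.81 in F8/F3 (adjusted p = 0.0114). Eif2ak1, the heme-sensing kinase, rose by 0.67 in M8/M3 (adjusted p = 0.0015). Nck1, an adaptor protein, fell by 0.60 in F8/F3 (adjusted p = 0.00126). The list's medians were -0.08 to -0.12 in the age comparisons. On single arrays they were -0.11 and -0.03 in M8/M3 and -0.04 and -0.07 in F8/F4. In F8/F4 limma called 0 of the 17, with 6 at an unadjusted p below 0.05 and 4 called without a threshold on the ratio.

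Of 22 ER chaperones and foldases, 3 and 4 were called down in males against 3 and 4 wk, and 6 and 5 in females, and 1 was called up in each. Dnajb9, a cochaperone of BiP, was at -1.44 and -0.82 in M8/M3 and -1.17 and -1.51 in F8/F3 (estimates -1.13 and -1.34, adjusted p = 0.0148 and 0.00764). Hspa5, which encodes BiP itself, was at -1.22 and -0.93 in M8/M3 and at -0.97 and -1.12 in F8/F3, and was called down in all 4 age comparisons by 1.03 to 1.07. Manf, a secreted ER stress protein, fell by 1.00 in males and 1.08 in females from 3 to 8 wk (adjusted p = 0.00799 and 0.00592). The list's medians were -0.23 to -0.35. On single arrays they were -0.12 and -0.35 in M8/M4, where the second array holds the M4 pool that stood apart above, and -0.23 and -0.45 in F8/F3. The sign was below 0 for 16 to 19 of the 22 genes, and without a threshold on the ratio the calls rose to 9 in M8/M3 and 9 in M8/M4.

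The gene of this list called up in each age comparison was Dnajb11, the partner of SDF2L1 named above. It was at 3.63 and 3.82 in M8/M3 and at 2.56 and 2.64 in F8/F3 (estimates 3.73 and 2.60, adjusted p = 0.000178 and 0.000542). Its one probe was well above background in 3 of 4 M3 channels and in every channel of the other groups. Between the sexes it was called down in M3/F3 (-0.96 and -0.69, adjusted p = 0.0385) and up in M8/F8 (0.52 and 1.38, adjusted p = 0.0232). Fkbp11, a prolyl isomerase of the ER, was at 0.26 and -0.16 in M8/M3 (estimate 0.05, not called). In F8/F3 it was at -0.72 and -1.43 (estimate -1.07, adjusted p = 0.000799). Its 3 to 8 wk change was called different between the sexes (difference 1.12, SE 0.13, adjusted p = 0.00854), with a higher level in males at 8 wk (M8/F8 at 0.79 and 1.37, adjusted p = 0.000782). The difference in the 4 to 8 wk change was 0.63 and not called (adjusted p = 0.0865). How these calls depend on the dye term or on single arrays was not tested.

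Of 25 genes of ER-associated degradation and translocation, 3 and 4 were called down in males against 3 and 4 wk, and 1 and 3 in females. Syvn1, which encodes the ubiquitin ligase HRD1 that works with HERPUD1, fell by 0.97, 1.29, 1.07 and 1.07 in these comparisons (adjusted p from 0.00575 to 0.0171). Sel1l, the partner of HRD1, was called down in 3 of the 4, by 0.69 to 0.77. Edem3, a mannosidase, fell by 0.64 in M8/M4 and 0.70 in F8/F4 (adjusted p = 0.00127 and 0.000961). Derl3 was at -0.76 and -2.11 in M8/M4 (adjusted p = 0.0329), and it is also on the list of plasma and B cell markers. The list's medians were -0.14 to -0.31, and without a threshold on the ratio 7, 7, 12 and 13 genes were called.

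The wider list of ATF4 targets, without the 10 genes, held 41 genes, of which 34 to 37 could be tested in a comparison. In M8/M3, 2 were called up and 6 down, in M8/M4 1 up and 4 down, in F8/F3 2 up and 5 down, and in F8/F4 1 up and 3 down. Psat1, of serine synthesis, fell by 2.13 in M8/M3 and 2.30 in F8/F3 (adjusted p = 0.000784 and 0.000602). Mthfd2, of mitochondrial folate metabolism, was at -2.42 and -2.01 in F8/F3 (adjusted p = 0.0015) and was not called in M8/M3 (estimate -0.70). The direct test between the sexes was not passed for its 3 to 8 wk change (difference 1.52, adjusted p = 0.0549) or its 4 to 8 wk change (0.88, adjusted p = 0.305). Fgf21, a hormone of fasting, fell by 1.58 in males and 1.34 in females over the same interval, and Nupr1, a stress-response regulator, fell by 1.81 in M8/M3 (adjusted p = 0.036). The medians of the list's estimates lay between -0.14 and -0.05. On single arrays, over all its genes with a probe, medians were -0.19 and -0.10 in M8/M3 and -0.16 and -0.02 in F8/F4.

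Between the sexes, 2 of 34 ATF4 targets were called up and 2 down in M8/F8, beside 2.66% and 3.74% of all genes. Mthfd2 was higher in males, with 1.91 and 1.53 (adjusted p = 0.00395), as was Psat1, with 0.38 and 1.06 (adjusted p = 0.045). Vldlr, a lipoprotein receptor, was at -2.47 and -1.13 (adjusted p = 0.0241) and Cth, of cysteine synthesis, at -0.84 and -0.94 (adjusted p = 0.0118), so that both were higher in females. In M4/F4 Fgf21 was higher in males, with 1.59 and 1.58 (adjusted p = 0.0156), and Cth was at -0.85 and -0.92 (adjusted p = 0.0121), beside 0.971% of all genes called down. The sign of the sex difference was mixed among ATF4 targets.

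**Figure D4:**
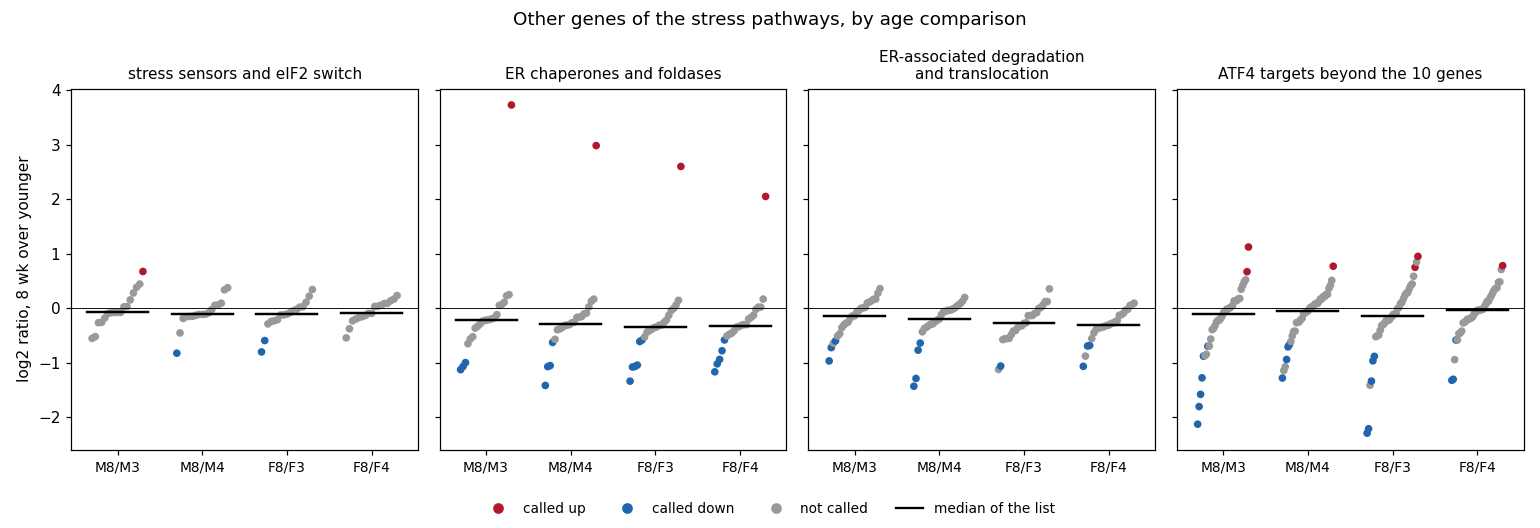
log2 ratio (vertical axis, 8 wk over the younger age) of every tested gene of 4 pathway lists in the 4 age comparisons, sorted within a comparison, with black lines at the medians. Points in blue and red were called down and up. Most called genes lie below 0, and the point at 3.73 in M8/M3 among chaperones is Dnajb11.

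Among the 10 genes, array ratios of Creld2 and Sdf2l1 followed each other most closely (Pearson r = 0.98 over the 14 arrays), then those of Ddit3 and Atf3 (r = 0.92). Trib3 ran opposite to Ddit3 (r = -0.91) and Atf3 (r = -0.85). The nearest genes of the 3 genes with the largest called change are given. Among 12302 other genes bright on every array, the 3 most like Creld2 were Syvn1 (r = 0.99), Manf (r = 0.99) and Hspa5 (r = 0.98), the last of which encodes BiP. Those most like Trib3 were Bach1, Irf2 and Maff (r = 0.98, 0.98 and 0.97), which encode transcription factors. Those most like Asns were Amd2, Yars2 and Mrtfa (r = 0.97, 0.96 and 0.96), and the probe named Amd2 may also detect its near-identical copy. These correlations describe 14 arrays that share pools, and a large common change with age raises them for many genes.

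The arrays can also be set against each other. The 3 wk and 8 wk groups, and the 4 wk and 8 wk groups, each form a closed loop of 4 comparisons, whose log2 ratios should cancel if pools of one number were the same RNA on each array. The absolute sum around a loop had a median of 0.06 and a maximum of 0.28 for the 10 genes, and a median of 0.05 over 12303 genes bright on every array. The 2 arrays of a comparison, which hold different pools with the dyes exchanged, differed by a median of 0.25 and at most 1.48 for the 10 genes. Asns had the largest sum and lay on one side of 0 in all 4 loops, at -0.23, -0.24, -0.28 and -0.28, and Atf3 reached -0.25 in one loop. A dye bias of a gene cancels around a loop and adds to the gap between the 2 arrays of a comparison, so that pool and dye cannot be told apart in that gap.

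Lists of other programs were read beside these genes, and their part in the results was not tested. Among all genes 7.81% and 4.43% were called up in males against 3 and 4 wk and 5.08% and 2.28% in females, and 10%, 6.37%, 6.64% and 3.72% were called down in the same order. All 12 proliferation genes tested were called down in each of the 4 age comparisons, and their summed level was 12460 to 26780 in the 3 and 4 wk pools and 2187 to 2498 in the 8 wk pools. Of 11 clock output genes 4 and 4 were called up in males against 3 and 4 wk, and 5 and 4 in females, while 1 was called down in M8/M3, 1 in M8/M4 and 2 in F8/F4. The largest changes were those of Nr1d2 (3.26 in M8/M3 and 3.28 in F8/F3), Nr1d1 (2.96 and 3.04) and Dbp (2.75 and 2.98). Nr1d1 was well above background in 2 of 4 channels of each 3 wk group. Of 11 fasting genes 1 was called up in each age comparison. Between the sexes 2 of them were called down in M3/F3 (Pck1, at -1.21 and -1.18, and Igfbp1, at -1.59 and -2.50) and 1 in M4/F4 (Ppargc1a, at -1.19 and -1.02), beside 0.517% of all genes called in M3/F3 and 0.971% called down in M4/F4. Of 13 to 14 immediate early genes at most 2 were called up and at most 1 down in any age comparison, and 1 of 13 was called down in M4/F4 (Egr1, -1.30).

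Markers of other cell types were read in the same way. Of 7 to 8 erythroid markers tested 5 to 6 were called down and at most 1 up in each age comparison, with a summed level of 68070 to 79310 in the younger pools and 36720 to 46400 at 8 wk, and Epb42 was well above background in no channel at 8 wk. Of 8 stellate and mesenchymal markers 3 to 4 were called down (73320 to 100600 against 42710 to 52690), and of 9 macrophage markers 2 in each male and 1 in each female comparison (36060 to 49820 against 24200 to 40510). Macrophage markers also differed between the sexes, and their part in the sex differences above was not tested. In M8/F8, 4 of 9 were called down, with a summed level of 24200 to 29660 in M8 and 37930 to 40510 in F8. All 9 lay below 0 in M3/F3 and M4/F4 too, with 0 and 1 called down. Their summed level was 36060 to 40190 in M3 and 43980 to 46190 in F3, and 38160 to 40990 in M4 and 47180 to 49820 in F4. In M4/F4, 1 of 7 erythroid and 1 of 7 bile duct markers were called up, beside 0.612% of all genes up and 0.971% down. The other calls in M8/F8 among the lists of programs and cell types were 1 up of 4 erythroid (Alas2, 1.89) and 1 up of 5 acinar markers (Ctrb1, 0.59), and 1 down each of 7 T and NK cell markers (Cd3g, -0.86), 11 clock genes (Per1, -1.20) and 11 proliferation genes (Top2a, -1.12). The summed level of acinar markers was 7055 to 7941 in M8 and 11520 to 11570 in F8. It was also lower in males at 3 wk (8971 to 9687 in M3, 10590 to 12300 in F3) and at 4 wk (7441 to 7827 in M4, 11150 to 11310 in F4). Of 8 endothelial, 7 bile duct, 7 to 8 T and NK cell and 8 plasma and B cell markers, at most 2 were called down and at most 1 up in any age comparison, and Cftr of the bile duct list was called up in all 4. Of 8 pancreatic acinar markers 4 to 6 could be tested, and at most 2 were called up and at most 1 down. Hepatocyte markers, against which the labelled tissue was checked, were all present. All 10 were tested in each comparison, at most 2 were called up and at most 1 down, and their summed level was 876700 to 1090000 in every pool.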

How the data were processed

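The authors hybridized 2 RNA pools per group to 2-colour Agilent arrays, in dye-swapped pairs, and ran Agilent Feature Extraction (version 10.7.1.1 per the file headers), which subtracted background and applied linear and LOWESS dye normalization. The deposited values used are the log10 ratio of red over green with its modelled error, the spot intensity of each channel (processed, background-subtracted and pixel medians) and flags for spots well above background, saturated or non-uniform. The deposited series table held the same log10 ratios (largest difference 0). No replicates were combined in the files.

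Ratios were turned by the labelled dyes, converted to log2, averaged over the spots of a probe without non-uniform spots (0 to 10 per array), and fitted in limma 3.58.1 (R 4.3.3, with the data.table package, version 1.17.8) with 1 coefficient per comparison and a dye term over all 14 arrays (6 residual degrees of freedom). This stands in for the Rosetta error model of the authors, which could not be run here. Benjamini-Hochberg adjustment ran over all probes and the 7 comparisons, or within a contrast for differences between comparisons. Calls needed an adjusted p below 0.05, a ratio above 1.5 or below 0.667, and a group well above background on both arrays. Levels are processed intensities after Aquantile scaling. A gene with several probes was read on the brightest. Probes were named through their RefSeq accession (26055 of 39429).

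The 10 genes and the lists were chosen with earlier results of these data known. All 10 genes are named. Of each pathway list up to 4 called genes with the largest change in the age comparisons are named, beside those called in a sex comparison where that is described, and of other lists up to 3. Genes most alike were computed for all 10 genes and are named for the 3 with the largest called change, which adds Hspa5 to the chaperones named. Alternatives were a replicate block, the slide as a block, no dye term, 6 group means, shared pools in the covariance, other background corrections, filters, thresholds and probe rules, error-weighted averages with an unadjusted p below 1e-04, and leaving out each array. The fits were also run on simulated data, which held no dye bias of single genes and so could not check the dye term. Deviations of arrays from their comparison's mean were checked for pairing by pool number: they correlated at 0.15 to 0.69 between arrays that share a group in the same orientation, at -0.56 to -0.44 in opposite orientation and at -0.30 to 0.22 without a shared group. Array number limits the precision.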

Additional observations from a re-analysis of the deposited data

Results flagged for a closer look

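Asns differed between the sexes in its change with age by a direct test in limma. The change from 3 to 8 wk was higher in males by 1.79 on the log2 scale (SE 0.23, adjusted p = 0.0105), with both male arrays (-0.38 and -0.92) above both female arrays (-2.16 and -2.73). The change from 4 to 8 wk was higher in males by 1.58 (SE 0.23, adjusted p = 0.0285), with male arrays at 0.40 and 0.05 and female arrays at -1.42 and -1.29. The first call was lost without a dye term and when any 1 of its 4 arrays was left out. The second was lost with the slide as a block, without a dye term, with shared pools in the covariance, with median-centred background-subtracted signals and when any of 3 of its 4 arrays was left out. Asns also had the largest sum around a closed loop of comparisons, at -0.28.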

How the results depend on the processing

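Of the 22 calls of the 10 genes in the 7 comparisons, 14 were kept under all 14 alternatives, and no call changed its sign. The replicate block kept 19 calls and lost 3 (Atf3 and Trib3 in M8/M4 and Chac1 in F8/F4), and the slide as a block kept 17 and lost 5 (Asns and Sdf2l1 in M8/M3, Atf3 and Trib3 in M8/M4, and Trib3 in F8/F3). With the replicate block 2 of the 10 genes were called in M8/M4, and with the slide as a block also 2. In M8/M4 minus F8/F4, 0 were called with the slide as a block, without a dye term, with shared pools in the covariance and with median-centred background-subtracted signals, and 2 with 6 group means and with error-weighted averages, which added Chac1. In M8/M3 minus F8/F3, 0 were called without a dye term and 2 with 6 group means. M4/M3 had 2 calls with 6 group means and with error-weighted averages, and 1 with shared pools in the covariance and with bright probes only. F4/F3 had 1 with 6 group means. M4/F4 had 0 with p-values adjusted within the comparison, and M3/F3 had 1 with error-weighted averages. The cause of these differences was not tested.

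With 1 array left out, a comparison rests on 1 array that is assumed to vary like the others. The genes called then ranged from 0 to 0 in M3/F3 and M4/F4, 1 to 1 in M8/F8, 2 to 3 in M8/M3, 0 to 3 in M8/M4, 1 to 2 in F8/F3, 1 to 3 in F8/F4, 0 to 0 in M8/M3 minus F8/F3, 0 to 1 in M8/M4 minus F8/F4, 0 to 0 in M4/M3 and 0 to 1 in F4/F3. Of the 22 calls, 4 were kept whichever array was left out (Ddit3 in M8/M3 and Asns in M8/F8, F8/F3 and F8/F4), 8 were kept with one left out and 10 were lost with either. Without a threshold on the ratio the pathway lists had more calls, for example 12 in place of 1 for ER-associated degradation in F8/F3.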
